A study of Mus musculus with 30 samples.

Results

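The 37 genes described here encode parts of the lysosome, and they were taken as a fixed list of hydrolase, membrane and proton pump genes matched by mouse symbol among the 54532 features of the count tables. By role they are 10 proteases (Ctsa, Ctsb, Ctsd, Ctsf, Ctsh, Ctsk, Ctsl, Ctsz, Lgmn and Tpp1), 8 glycosidases (Gaa, Gla, Glb1, Gusb, Hexa, Neu1, Naglu and Man2b1) and 7 genes of lipid handling (Npc1, Npc2, Psap, Gm2a, Lipa, Asah1 and Ppt1). The others are 6 membrane proteins (Lamp1, Lamp2, Cd63, Scarb2, Mcoln1 and Cln3), 5 genes of the proton pump (Atp6v0d1, Atp6v0a1, Atp6v1a, Atp6v1h and Atp6ap1) and Grn, which encodes progranulin. All 37 passed the filter on low counts, so each was among the 13286 genes tested.

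Expression was measured in subcutaneous tumours of YUMM1.7, a mouse melanoma line of C57BL/6 background that carries an activated Braf allele together with loss of Cdkn2a. The 10 groups were the clones 2646TN, 2646R, 14559TN, 14559R and 13TN, each grown untreated or under RAFi/MEKi, the combination of a RAF inhibitor and a MEK inhibitor, with 3 tumours per group. The letters TN and R are used as names, because the labels do not spell them out, and the titles of the 13TN tumours carry the word Depleted. Every group came from a CaTCH-isolated clone (CaTCH marks and retrieves single lineages by their barcode), so a difference between clones is a difference between single clones. The drugs behind RAFi/MEKi, their doses and the length of treatment are not given in the sources used here. The sorted material was live cells with strong GFP signal after a CD45 stain, and a library was read from the 3′ ends of its polyadenylated transcripts (QuantSeq). No label says more of the replicates than that each is its own tumour.

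Library totals ran from 3022801 to 5278453 counts (median 4042893). Replicates differed by more than counting noise, with a chi-square per degree of freedom of 3.39 to 18.7 between libraries of a group, and the biological coefficient of variation was 18.2%. Of the 7 pigment cell markers, Dct, Tyr and Tyrp1 had 0 counts in every library, and the 7 together reached 13.6 to 91.4 CPM (counts scaled to library size) per library. Of that sum Mitf had 12.0 to 81.1 CPM, Sox10 had 0 to 51.7 CPM, and Pmel and Mlana reached at most 1.81 and 0.251 CPM. The pigment enzymes among the defining markers were thus absent, and Mitf was present in every library. The 15 macrophage markers together stood at 219.6 to 362.9 CPM in untreated 2646TN tumours and at 23.8 to 145.9 CPM in the libraries of the other 9 groups. The 6 lymphocyte markers included Cd3g and Cd79a at 0 counts throughout, and the 5 neutrophil markers included Cxcr2 and Ly6g at 0 counts throughout.

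Lysosomes are acidic compartments that break down proteins, glycans, lipids and whole organelles delivered by endocytosis and autophagy. A proton pump, the V-ATPase, sets the acid pH at which the soluble hydrolases work, and heavily glycosylated membrane proteins line the inside of the limiting membrane. Transcription factors of the MiT/TFE family (MITF, TFEB, TFE3 and TFEC) bind an extended E-box, known as the CLEAR element, in many lysosomal promoters. MITF is also the lineage factor of pigment cells, and melanoma cells use secreted and intracellular cathepsins to turn over matrix and cargo.

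RefSeq promoter windows of GRCm38.p6, 250 bases before to 50 bases after a start site, matched 32 of the 37 genes by symbol (36 windows in all). Ctsb, Ctsh, Npc1, Asah1 and Atp6v1h had no window. The E-box core CACGTG, which is its own reverse complement, occurred in windows of 14 of the 32 genes (43.75%) and of 8.09% of the 27025 genes in the table. The longer palindrome TCACGTGA, which holds the core, occurred in 7 of the 32 (21.88%), namely Ctsa, Ctsd, Gla, Mcoln1, Cln3, Atp6v0d1 and Atp6v1a, and in 1.12% of all genes. The sequences below show the windows of Gla and Atp6v1a, which fell under treatment, and of Ctsa, which differed between clones, with TCACGTGA in capitals. Those of Ctsl, with the core alone in capitals, and of Gm2a, with neither, are shown because each was called in at least 3 responses and in both untreated comparisons of an R with a TN clone.
Gla, chrX:134600956-134601255, minus strand: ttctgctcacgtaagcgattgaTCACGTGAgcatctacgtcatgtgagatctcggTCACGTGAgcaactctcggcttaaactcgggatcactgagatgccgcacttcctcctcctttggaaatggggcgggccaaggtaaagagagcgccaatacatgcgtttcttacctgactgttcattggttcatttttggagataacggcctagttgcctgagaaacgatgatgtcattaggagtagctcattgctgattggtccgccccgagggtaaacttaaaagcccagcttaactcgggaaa
Atp6v1a, chr16:44139210-44139509, minus strand: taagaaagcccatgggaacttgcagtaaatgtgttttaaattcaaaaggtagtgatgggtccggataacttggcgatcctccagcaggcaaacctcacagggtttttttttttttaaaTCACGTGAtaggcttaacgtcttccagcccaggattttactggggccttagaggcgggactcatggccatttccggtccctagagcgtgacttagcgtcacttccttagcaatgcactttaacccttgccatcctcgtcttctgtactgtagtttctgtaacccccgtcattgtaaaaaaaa
Ctsa, chr2:164833523-164833822, plus strand: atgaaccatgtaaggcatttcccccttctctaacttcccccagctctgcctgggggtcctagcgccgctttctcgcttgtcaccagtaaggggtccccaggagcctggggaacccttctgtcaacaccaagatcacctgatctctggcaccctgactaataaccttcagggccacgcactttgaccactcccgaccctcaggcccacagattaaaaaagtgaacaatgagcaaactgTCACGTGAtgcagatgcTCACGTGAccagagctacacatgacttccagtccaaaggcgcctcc
Ctsl, chr13:64370471-64370770, minus strand: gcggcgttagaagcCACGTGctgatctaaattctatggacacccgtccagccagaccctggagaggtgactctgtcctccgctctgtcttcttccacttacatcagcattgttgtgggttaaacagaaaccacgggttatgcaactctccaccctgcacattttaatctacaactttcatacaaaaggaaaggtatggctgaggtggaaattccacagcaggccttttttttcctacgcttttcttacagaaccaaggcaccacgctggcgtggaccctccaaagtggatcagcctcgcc
Gm2a, chr11:55097735-55098034, plus strand: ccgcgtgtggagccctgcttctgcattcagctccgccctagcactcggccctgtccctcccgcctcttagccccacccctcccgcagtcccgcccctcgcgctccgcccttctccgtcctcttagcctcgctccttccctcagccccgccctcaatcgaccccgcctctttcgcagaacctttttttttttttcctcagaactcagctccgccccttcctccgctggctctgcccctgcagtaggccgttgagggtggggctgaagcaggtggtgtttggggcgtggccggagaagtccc
Counted with the first base of the transcript as 0, TCACGTGA began at -228 and -195 in Gla, at -132 in Atp6v1a, and at -13 and 4 in Ctsa. The core in Ctsl began at -236. A match describes letters in this window only.

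The treatment comparison asks how RAFi/MEKi changed these genes in each clone. Of the 37 genes, 23 passed the test (edgeR quasi-likelihood, adjusted p under 0.05 over all 13286 genes) in at least 1 clone's response, where 49.6% of all tested genes did. Of the 23, 15 were called only as lower, 6 only as higher and 2 in both directions in different clones. In 2646TN, 7 genes fell and 0 rose, where 2.24% of all tested genes were called lower and 1.69% higher. In 2646R, 11 fell and 4 rose (10.2% and 9.7% of all genes). In 14559TN, 9 fell and 3 rose (16% and 12.4%), and in 13TN, 10 fell and 6 rose (17.4% and 13.6%). In 14559R none was called, with 0.0527% of all genes lower and 0.143% higher. The median log2 fold change of the 37 genes was -0.33 in 2646TN, -0.10 in 2646R, -0.12 in 14559TN, 0.16 in 14559R and -0.09 in 13TN, beside medians of all tested genes within 0.0121 of 0. In sorted bulk samples, fewer cells of a type and less RNA per cell cannot be told apart. The heat map of log2 fold changes shows the 37 genes by role.

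**Figure D1:**
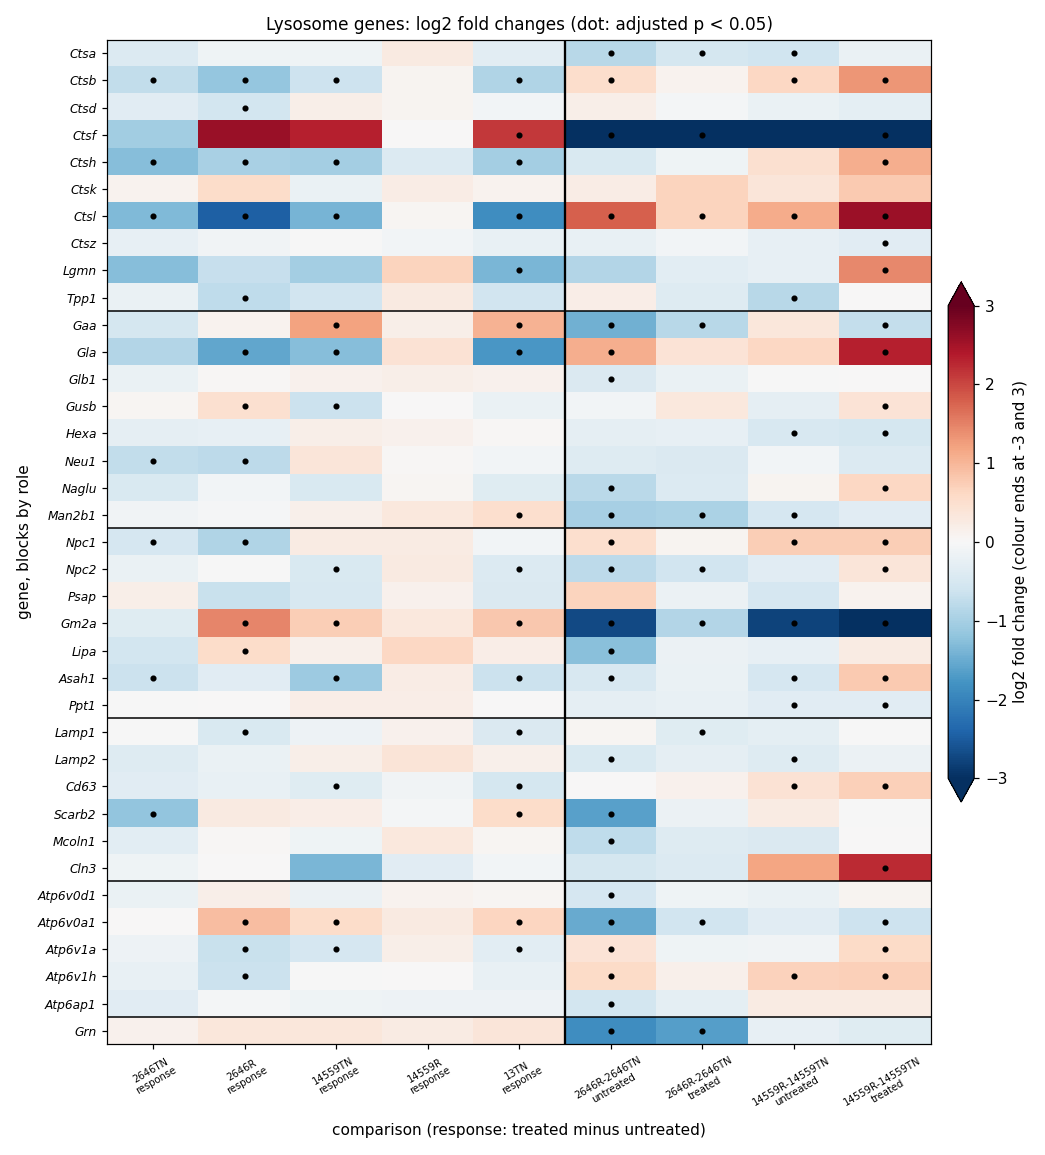
Colour gives the log2 fold change of each of the 37 genes (rows, in blocks by role) in 5 treatment responses and 4 comparisons of R with TN clones (columns), with colours ending at -3 and 3; a dot marks an adjusted p under 0.05. The rows of Ctsl, Ctsb and Ctsh carry dots on blue in 4 of the 5 response columns, and the 14559R response column carries 0 dots. Colours of Ctsf rest on 0 to 77 counts per group.

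The cysteine proteases Ctsl, Ctsb and Ctsh were called in the most responses, and each fell in 2646TN, 2646R, 14559TN and 13TN. Ctsl (cathepsin L, chr13:64359337-64370890, minus strand) is an endopeptidase of the lysosome lumen. It was read at 709, 643 and 512 CPM in untreated and 245, 305 and 195 CPM in treated 2646TN tumours. In 2646R it was at 2737, 1634 and 2105 CPM untreated and 379, 399 and 402 CPM treated. The treated values lay below every untreated value in each of these clones, and the fall was 2.50-fold in 2646TN (log2 -1.32 ± 0.21 SE, adjusted p = 0.000251) and 5.49-fold in 2646R (log2 -2.46 ± 0.21 SE, adjusted p = 6.02e-09). In 14559TN, Ctsl was at 1552, 1613 and 1705 CPM untreated and 501, 778 and 563 CPM treated. In 13TN it was at 1045, 1031 and 1825 CPM untreated and 296, 338 and 444 CPM treated. The groups did not overlap here either, with falls of 2.64-fold (log2 -1.40 ± 0.21 SE, adjusted p = 7.65e-06) and 3.62-fold (log2 -1.86 ± 0.21 SE, adjusted p = 8.97e-08). Clone 14559R stood apart in level: Ctsl was at 3857, 3322 and 3367 CPM untreated and 3386, 3814 and 3748 CPM treated, groups that overlapped (log2 0.05 ± 0.20 SE, adjusted p = 0.96).

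Ctsb (cathepsin B, chr14:63122462-63145923, plus strand) trims proteins and peptides in the lysosome and can be secreted by tumour cells. Its values were 606, 630.4 and 571 CPM untreated and 347, 387 and 349.5 CPM treated in 2646TN, and 849.8, 829 and 923 CPM untreated and 371, 374 and 421 CPM treated in 2646R. In 14559TN they were 771, 774 and 811 CPM untreated and 468, 585 and 481 CPM treated, and in 13TN 785, 806 and 1054 CPM untreated and 447, 457 and 522 CPM treated. Every treated tumour of these 4 clones was below every untreated tumour of its clone. The falls were 1.67-fold in 2646TN (log2 -0.74 ± 0.13 SE, adjusted p = 0.000674), 2.23-fold in 2646R (log2 -1.16 ± 0.13 SE, adjusted p = 1.34e-07), 1.53-fold in 14559TN (log2 -0.62 ± 0.13 SE, adjusted p = 0.000505) and 1.85-fold in 13TN (log2 -0.89 ± 0.13 SE, adjusted p = 3.15e-06). In 14559R the values overlapped, at 1367, 971 and 1257 CPM untreated and 1091, 1414 and 1331 CPM treated.

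Ctsh (cathepsin H, chr9:90054152-90076089, plus strand) is an aminopeptidase of the same family. Counts were 185, 175 and 198 CPM untreated and 62.5, 55.7 and 111 CPM treated in 2646TN, and 116, 129 and 164 CPM untreated and 64.1, 76.7 and 68.4 CPM treated in 2646R. They were 24.1, 44.5 and 33.0 CPM untreated and 15.9, 18.3 and 15.7 CPM treated in 14559TN, and 114, 123 and 104 CPM untreated and 53.6, 43.7 and 72.1 CPM treated in 13TN. The groups of these 4 clones did not overlap, and the log2 fold changes lay between -0.97 in 2646R and -1.28 in 2646TN. In 14559R, Ctsh was at 34.1, 53.3 and 53.1 CPM untreated and 38.2, 40.7 and 27.5 CPM treated, with a fitted change of -0.40 ± 0.23 (SE) that did not pass (adjusted p = 0.576). A test of whether the 5 responses of Ctsh differ did not pass (adjusted p = 0.239), so its miss in 14559R is not shown to be a smaller response.

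Other proteases moved in fewer clones. Lgmn (legumain, an asparaginyl endopeptidase that processes cathepsins) was at 44.2, 61.9 and 62.0 CPM untreated and 18.5, 20.4 and 26.4 CPM treated in 13TN, without overlap, and fell (log2 -1.37 ± 0.39 SE, adjusted p = 0.0101). Its values were 44.0, 33.3 and 27.4 CPM untreated and 19.7, 19.8 and 4.53 CPM treated in 2646TN, and 48.4, 37.4 and 50.6 and 9.63, 37.3 and 19.1 CPM in 14559TN, where treated tumours lay below untreated ones but the fitted changes of -1.27 ± 0.42 (adjusted p = 0.0941) and -1.02 ± 0.40 (adjusted p = 0.0563) did not pass. In 2646R it was at 16.3, 20.8 and 19.6 CPM untreated and 13.9, 13.3 and 7.32 CPM treated, and in 14559R at 38.1, 50.8 and 26.3 and 77.1, 44.3 and 62.5 CPM, neither of them called. Ctsd, the main aspartic protease of the lysosome, fell in 2646R (log2 -0.56 ± 0.13 SE, adjusted p = 0.00218), as did the tripeptidyl peptidase Tpp1 (log2 -0.76 ± 0.26 SE, adjusted p = 0.0394). The Tpp1 call ended without any 1 of treated replicates 1, 2 and 3 or untreated replicates 1 and 3 (adjusted p = 0.0529 to 0.162). Ctsf (cathepsin F) was close to the limit of detection and rose in 13TN, where the 3 tumours held 8 counts in all untreated and 40 treated, a ratio of 4.60 after scaling (adjusted p = 0.0393). That call ended without untreated replicate 1 or 3 or treated replicate 1 or 2 (adjusted p = 0.0654 to 0.147). Ctsa, Ctsk and Ctsz were called in 0 of the 5 responses.

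**Figure D2:**
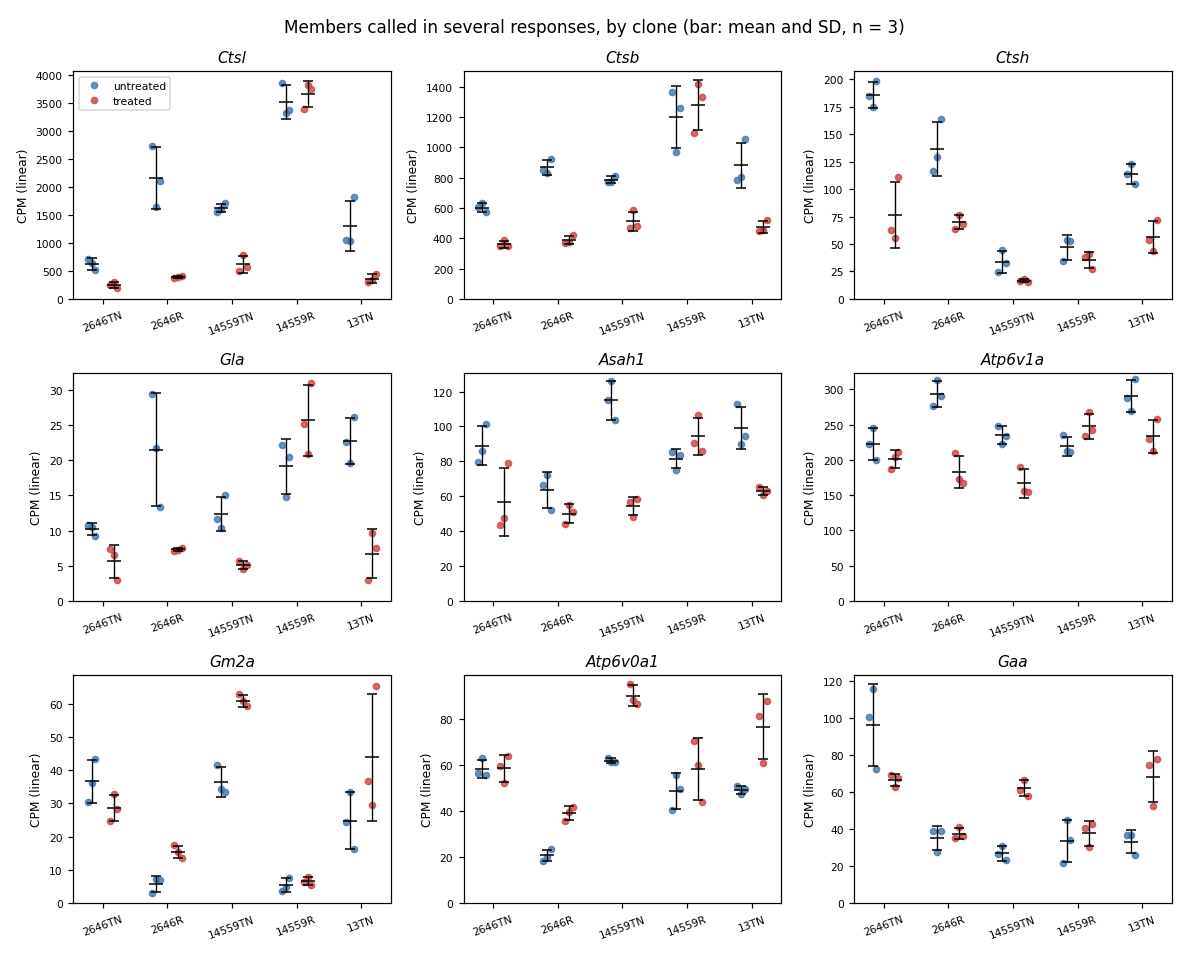
Each panel plots 1 gene in CPM on a linear axis from 0, by clone, with untreated tumours in blue, treated tumours in red and black bars for the mean and SD of 3 tumours. Ctsl, Ctsb, Ctsh, Gla, Asah1 and Atp6v1a sit lower in treated tumours of several clones, Gm2a, Atp6v0a1 and Gaa sit higher, and in 14559R the red and blue points of Ctsl lie between 3322 and 3857 CPM.

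Among the glycosidases, Gla fell in 3 clones and Gaa rose in 2. Gla (alpha-galactosidase A, chrX:134588149-134601125, minus strand) removes terminal galactose from glycolipids. It stood at 29.4, 21.7 and 13.4 CPM untreated and 7.15, 7.25 and 7.57 CPM treated in 2646R, and at 11.6, 10.4 and 15.1 CPM untreated and 5.67, 4.59 and 5.13 CPM treated in 14559TN. In 13TN it stood at 22.6, 19.6 and 26.1 CPM untreated and 2.93, 9.73 and 7.54 CPM treated. No treated value reached an untreated one in these 3 clones, where it fell 2.95-fold (log2 -1.56 ± 0.31 SE, adjusted p = 0.000536), 2.43-fold (log2 -1.28 ± 0.34 SE, adjusted p = 0.00478) and 3.37-fold (log2 -1.75 ± 0.32 SE, adjusted p = 7.04e-05). In 2646TN, with 10.8, 10.6 and 9.20 CPM untreated and 7.33, 6.48 and 3.02 CPM treated, the groups did not overlap but the change did not pass (-0.87 ± 0.35, adjusted p = 0.172). In 14559R the values were 22.1, 14.8 and 20.5 CPM untreated and 25.1, 21.0 and 31.0 CPM treated, which overlapped.

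Gaa (acid alpha-glucosidase, which degrades glycogen in the lysosome) rose in 2 of the 3 clones in which Gla fell. It was at 26.6, 30.7 and 22.9 CPM untreated and 61.2, 66.5 and 57.9 CPM treated in 14559TN (log2 1.22 ± 0.22 SE, adjusted p = 5.56e-05), and at 36.7, 36.6 and 25.8 CPM untreated and 74.3, 52.3 and 77.9 CPM treated in 13TN (log2 1.04 ± 0.21 SE, adjusted p = 0.00027). Both pairs of groups were apart. Gusb (beta-glucuronidase) took opposite directions, falling in 14559TN (log2 -0.64 ± 0.17 SE, adjusted p = 0.00345) and rising in 2646R (log2 0.48 ± 0.16 SE, adjusted p = 0.036). The 2646R call of Gusb ended without untreated replicate 1 or 2 or treated replicate 2 or 3 (adjusted p = 0.0778 to 0.106), without the low-count filter (0.0758) and with only the groups compared (0.0588). Neu1, the lysosomal sialidase, fell in 2646TN (log2 -0.75 ± 0.20 SE, adjusted p = 0.0265) and 2646R (log2 -0.78 ± 0.20 SE, adjusted p = 0.00581), and its 2646R call ended without untreated replicate 1 (adjusted p = 0.0523). Man2b1 (lysosomal alpha-mannosidase) was called higher in 13TN although its groups overlapped (88.0, 97.5 and 97.3 CPM untreated, 134, 97.3 and 169.9 CPM treated), and the call ended without treated replicate 3 (adjusted p = 0.138). Glb1, Hexa and Naglu were called in 0 of the 5 responses.

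The genes of lipid handling split by direction. Asah1 (acid ceramidase, chr8:41340197-41374773, minus strand) splits ceramide into sphingosine and fatty acid. Its values were 115, 126 and 104 CPM untreated and 57.0, 48.4 and 58.1 CPM treated in 14559TN, a fall of 2.11-fold (log2 -1.08 ± 0.17 SE, adjusted p = 8.62e-06). In 13TN they were 113, 89.9 and 94.6 CPM untreated and 65.0, 60.9 and 63.1 CPM treated, a fall of 1.57-fold (log2 -0.65 ± 0.17 SE, adjusted p = 0.00282). In 2646TN they were 79.7, 86.2 and 101 CPM untreated and 43.7, 47.6 and 78.8 CPM treated, also apart (log2 -0.65 ± 0.17 SE, adjusted p = 0.0218), but this call ended without untreated replicate 2 or 3 or treated replicate 1 or 2 (adjusted p = 0.0528 to 0.149). In 2646R (66.4, 72.1 and 52.3 CPM untreated, 44.2, 54.9 and 50.7 CPM treated) the groups overlapped. In 14559R (85.3, 75.2 and 83.9 CPM untreated, 90.7, 106 and 86.2 CPM treated) the treated values lay just above the untreated ones, and Asah1 was called in neither clone.

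Gm2a (the GM2 activator, which presents ganglioside to hexosaminidase, chr11:55098115-55113029, plus strand) moved the other way. In 2646R it was at 2.94, 7.32 and 6.81 CPM untreated and 17.3, 15.4 and 13.6 CPM treated, a 2.77-fold rise without overlap (log2 1.47 ± 0.32 SE, adjusted p = 0.00112). In 14559TN it was at 41.5, 34.3 and 33.5 CPM untreated and 62.9, 60.9 and 59.3 CPM treated (log2 0.74 ± 0.26 SE, adjusted p = 0.0298). In 13TN it was at 24.5, 33.4 and 16.3 CPM untreated and 36.7, 29.4 and 65.6 CPM treated, groups that overlapped (log2 0.81 ± 0.27 SE, adjusted p = 0.0182). The 14559TN call ended without untreated replicate 2 or 3 or any 1 of the treated replicates (adjusted p = 0.0586 to 0.106) and with the macrophage covariate described below (0.0745), and the 13TN call ended without untreated replicate 3 (0.116) or treated replicate 3 (0.241). The 2646TN values were 30.4, 36.1 and 43.5 CPM untreated and 24.8, 32.7 and 28.2 CPM treated, and those of 14559R were 3.48, 4.84 and 7.56 CPM untreated and 6.33, 7.80 and 5.54 CPM treated, with overlap in each.

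Npc1, the membrane transporter that moves cholesterol out of the lysosome, was at 103, 101 and 87.8 CPM untreated and 50.5, 58.0 and 47.0 CPM treated in 2646R and fell 1.88-fold (log2 -0.91 ± 0.15 SE, adjusted p = 2.84e-05). In 2646TN it was at 68.9, 66.2 and 72.0 CPM untreated and 53.0, 42.4 and 50.4 CPM treated, again apart (log2 -0.51 ± 0.15 SE, adjusted p = 0.0478), a call that ended without any 1 of those 6 libraries (adjusted p = 0.064 to 0.178). In 14559TN, 14559R and 13TN its fitted changes lay between -0.08 and 0.24 and did not pass. Npc2, the soluble partner of Npc1, fell in 14559TN (log2 -0.46 ± 0.14 SE, adjusted p = 0.0107) and 13TN (log2 -0.41 ± 0.14 SE, adjusted p = 0.0186). The former call ended without treated replicate 3 (adjusted p = 0.0597), and the latter without untreated replicate 1 or 3 or treated replicate 1 or 3 (0.0558 to 0.0986). Lipa, the acid lipase of cholesteryl esters, rose in 2646R (log2 0.56 ± 0.18 SE, adjusted p = 0.0233), which ended without untreated replicate 1 (0.189) or treated replicate 1 (0.0804) or 2 (0.0538). Psap and Ppt1 were called in 0 of the 5 responses.

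Of the 6 membrane proteins, Lamp1, Cd63 and Scarb2 were called in at least 1 response. Lamp1, an abundant glycoprotein of the limiting membrane, fell in 2646R (log2 -0.46 ± 0.12 SE, adjusted p = 0.00501) and 13TN (log2 -0.43 ± 0.12 SE, adjusted p = 0.0057), and the tetraspanin Cd63 fell in 14559TN (log2 -0.37 ± 0.12 SE, adjusted p = 0.0244) and 13TN (log2 -0.52 ± 0.12 SE, adjusted p = 0.00156). The 13TN call of Lamp1 ended without untreated replicate 3 (adjusted p = 0.0638) or treated replicate 2 (0.0556), and the 14559TN call of Cd63 without untreated replicate 2 or 3 or treated replicate 1 or 3 (0.0516 to 0.102). Scarb2 (LIMP-2, the sorting receptor of glucocerebrosidase) was at 931, 1117 and 731 CPM untreated and 428, 451 and 353 CPM treated in 2646TN and fell 2.26-fold (log2 -1.17 ± 0.20 SE, adjusted p = 0.000592). In 13TN it was at 489.6, 526 and 529 CPM untreated and 771, 560.0 and 943 CPM treated and was called higher (log2 0.56 ± 0.20 SE, adjusted p = 0.0314), a call that ended without any 1 of untreated replicates 1, 2 and 3 or treated replicates 1 and 3 (adjusted p = 0.0566 to 0.175). Lamp2, Mcoln1 and Cln3 were called in 0 of the 5 responses.

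In the proton pump, Atp6v0a1 and Atp6v1a moved in opposite directions. Atp6v0a1, a subunit of the membrane sector (chr11:101009452-101063719, plus strand), rose in 2646R from 18.4, 20.1 and 23.4 CPM to 35.7, 39.7 and 41.9 CPM (log2 0.93 ± 0.17 SE, adjusted p = 0.000175). It rose in 14559TN from 63.1, 61.3 and 61.4 CPM to 95.2, 88.4 and 86.6 CPM (log2 0.54 ± 0.16 SE, adjusted p = 0.00881), and in 13TN from 50.8, 47.3 and 49.4 CPM to 81.5, 60.9 and 87.7 CPM (log2 0.64 ± 0.16 SE, adjusted p = 0.00212). The groups were apart in these 3 clones. They overlapped in 2646TN (56.3, 62.8 and 55.8 CPM untreated, 59.7, 52.2 and 63.7 CPM treated) and in 14559R (40.6, 55.8 and 49.5 CPM untreated, 70.6, 60.2 and 43.9 CPM treated).

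Atp6v1a, the catalytic subunit of the cytosolic sector (chr16:44085402-44139705, minus strand), was lower in the same 3 clones. Its values were 277, 313 and 291 CPM untreated and 209, 173 and 168 CPM treated in 2646R (log2 -0.68 ± 0.12 SE, adjusted p = 9.46e-05), and 248, 222 and 234 CPM untreated and 189.8, 156 and 154 CPM treated in 14559TN (log2 -0.50 ± 0.12 SE, adjusted p = 0.00183). In 13TN they were 287, 269 and 315 CPM untreated and 229, 213 and 259 CPM treated (log2 -0.31 ± 0.12 SE, adjusted p = 0.0402). These groups were apart, but the 13TN call ended without any 1 of untreated replicates 1, 2 and 3 or treated replicates 1 and 2 (adjusted p = 0.0504 to 0.219), under median-of-ratios factors (0.0805), without the low-count filter (0.27), with only the groups compared (0.082) and in DESeq2 (0.0613). In 2646TN (223, 245 and 199.8 CPM untreated, 187, 204 and 212 CPM treated) and 14559R (235, 212 and 211 CPM untreated, 233, 268 and 243 CPM treated) it was not called. Atp6v1h, another subunit of the cytosolic sector, was at 50.8, 42.8 and 53.7 CPM untreated and 26.0, 33.0 and 34.8 CPM treated in 2646R and fell there (log2 -0.65 ± 0.21 SE, adjusted p = 0.0227). That call ended without untreated replicate 1 or 3 or treated replicate 1 (adjusted p = 0.0675 to 0.143). Atp6v0d1, Atp6ap1 and Grn were called in 0 of the 5 responses, and Grn had fitted changes of 0.14 to 0.36.

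The 14559TN and 13TN responses share no libraries, and 11 genes were called in both (11 of the 12 called in 14559TN and 11 of the 16 called in 13TN), each in the same direction in the 2 clones. Of all tested genes 18.8% were called in both in 1 direction, which is 66.2% of all genes called in 14559TN and 60.6% of those called in 13TN. Leaving out untreated replicate 3 of 13TN left 10 calls in that clone.

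Marker levels of other cell types differed along with some responses. In 2646TN the macrophage marker sum was lower under treatment. Their summed level was 219.6 to 362.9 CPM untreated and 41.5 to 125.2 CPM treated, and 6 of the 13 tested markers were called lower (C1qa, C1qb, C1qc, Lyz2, Aif1 and Fcer1g). With the mean macrophage marker level of each library as a covariate, 3 of the 7 calls in 2646TN remained (Ctsl, Ctsb and Scarb2), and those of Ctsh, Neu1, Npc1 and Asah1 ended. The log2 fold change with the covariate was -0.63 for Ctsh (adjusted p = 0.221), -0.60 for Neu1 (0.274), -0.44 for Npc1 (0.291) and -0.39 for Asah1 (0.396). It was thus nearer its value without the covariate for Neu1 and Npc1 than for Ctsh and Asah1. Leaving out untreated replicate 2 or treated replicate 2 left 4 calls in this clone. In 2646R the marker sum moved the other way, from 36.4 to 79.0 CPM untreated to 138.9 to 145.9 CPM treated. Of the 13 tested markers, 2 (C1qb and Lyz2) were called higher there and 0 lower. With the covariate, 11 of the 15 calls of lysosome genes in 2646R remained. The other 4 had log2 fold changes of -0.41 for Tpp1 (adjusted p = 0.391), 0.54 for Gusb (0.0671), 0.48 for Lipa (0.141) and -0.46 for Atp6v1h (0.226), of which that of Gusb was larger than without the covariate. In 14559TN the sums were 32.2 to 105.9 CPM untreated and 75.7 to 141.1 CPM treated, and in 13TN 58.3 to 100.6 CPM and 30.8 to 85.9 CPM. All 16 calls of 13TN and 11 of the 12 of 14559TN remained with the covariate. The part of macrophage RNA in these results was not tested beyond that fit.

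The summed level of the 8 fibroblast and pericyte markers was higher under treatment in 3 clones. Their sum was 584.7 to 756.4 CPM untreated and 1385 to 2740.2 CPM treated in 2646TN, and 1213 to 2085 CPM and 4253 to 5553 CPM in 2646R, without overlap. It was also apart in 13TN, at 603 to 780.2 CPM and 918 to 1069.8 CPM, and overlapped in 14559TN (1190.4 to 1356 CPM and 1289 to 1794 CPM) and 14559R (1659 to 3428 CPM and 1932 to 3803 CPM). Acta2 and Col1a1 were called higher in 2646TN, 2646R and 13TN, Dpt in 14559TN and 13TN, and Acta2 and Lum in 14559TN, while Cspg4 was called lower in 2646R, 14559TN and 13TN. Pdgfra, Pdgfrb and Rgs5 were called in no response. In treated 2646R tumours Col1a1 (3293 to 4303 CPM) and Acta2 (660 to 918 CPM) made up most of the sum. Which cells these transcripts came from was not tested. Of the 4 endothelial markers tested, 0 were called in any response. In untreated 2646R, 3 of them (Pecam1, Cdh5 and Egfl7) were lower than in 2646TN, and Kdr was lower in untreated 14559R than in 14559TN. Of the fibroblast and pericyte markers, Col1a1, Acta2, Cspg4 and Pdgfrb were called higher and Pdgfra and Dpt lower in untreated 2646R than in 2646TN. Lum, Rgs5, Col1a1 and Pdgfrb were called higher and Pdgfra, Dpt and Cspg4 lower in untreated 14559R than in 14559TN. The untreated sums of these markers did not overlap in either pair, with the R clone higher. The part of these cell types in the values of the lysosome genes was not tested.

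**Figure D3:**
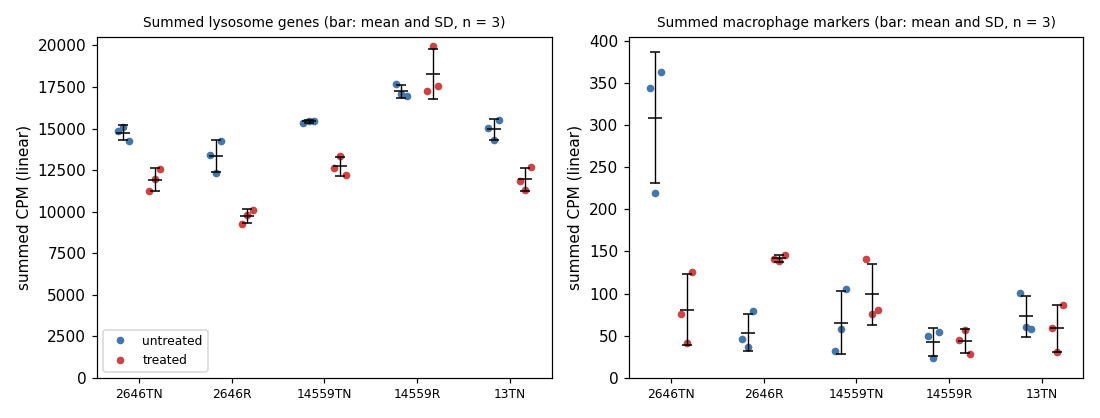
The left panel plots the summed CPM of the 37 lysosome genes and the right panel that of the 15 macrophage markers, each on a linear axis from 0 by clone, with untreated tumours in blue, treated tumours in red and bars for the mean and SD of 3 tumours. The lysosome sum is lower in treated tumours of 2646TN, 2646R, 14559TN and 13TN without overlap, and the macrophage sum is highest in untreated 2646TN tumours.

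Summed over the 37 genes, 2646TN tumours stood at 14230 to 15105 CPM untreated and 11226 to 12595 CPM treated. The sums of 2646R were 12348.0 to 14256 CPM untreated and 9275 to 10091 CPM treated, those of 14559TN 15342 to 15472 CPM and 12223 to 13318 CPM, and those of 13TN 14289 to 15499 CPM and 11281 to 12692 CPM. In 14559R the sum was 16947 to 17702 untreated and 17246 to 19992 treated. A sum in CPM is carried by its most abundant genes, and in 14559R the 2 groups overlapped.

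A further comparison asks whether the response differed between clones. The F test over the 5 responses called 20 of the 37 genes, where 28.8% of all tested genes were called. Ctsl (adjusted p = 2.76e-06), Ctsb (5.18e-05), Gaa (8.99e-05), Npc1 (9.59e-05) and Scarb2 (0.000218) had the smallest values. In 14559R, 0 of the 37 genes were called, also in DESeq2, and 3 had an unadjusted p under 0.05 (Lipa, Lamp2 and Ctsa, with fitted changes of 0.63, 0.38 and 0.27). The treated and untreated values of each overlapped, and the share of all tested genes with an unadjusted p under 0.05 was not counted. Lipa was the single gene called there without the low-count filter (adjusted p = 0.0107) or without treated replicate 3 (0.013).

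Compared directly with 14559TN, the 14559R response was higher for 7 genes and lower for 1 (7.93% and 4.08% of all genes). Gla (log2 1.71 ± 0.45 SE, adjusted p = 0.0103), Lgmn (log2 1.70 ± 0.55 SE, adjusted p = 0.0436), Ctsl (log2 1.46 ± 0.29 SE, adjusted p = 0.001), Asah1 (log2 1.29 ± 0.23 SE, adjusted p = 0.000273), Npc2 (log2 0.71 ± 0.19 SE, adjusted p = 0.0115), Ctsb (log2 0.71 ± 0.18 SE, adjusted p = 0.00913) and Atp6v1a (log2 0.67 ± 0.17 SE, adjusted p = 0.00682) were the 7, and in each the 14559TN value was negative and the 14559R value at or above 0.05. For Gaa the difference was lower (log2 -1.05 ± 0.30 SE, adjusted p = 0.0193), the rise of 14559TN having no counterpart called in 14559R. The Lgmn difference ended without any 1 of 8 of the 12 libraries (untreated and treated replicates 1 and 3 of both clones, adjusted p = 0.0691 to 0.1) and with only the groups compared (0.0954). The Gaa difference ended without 14559R untreated or treated replicate 2 or 14559TN untreated replicate 3 (0.0598 to 0.106), and the Npc2 difference without 14559R treated replicate 2 (0.0523).

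Between 2646R and 2646TN, the response difference was higher for Gm2a (log2 1.83 ± 0.42 SE, adjusted p = 0.00838), Scarb2 (log2 1.45 ± 0.28 SE, adjusted p = 0.00289), Lipa (log2 1.10 ± 0.25 SE, adjusted p = 0.00803) and Atp6v0a1 (log2 0.92 ± 0.23 SE, adjusted p = 0.0175) and lower for Ctsl (log2 -1.13 ± 0.29 SE, adjusted p = 0.0227), where 2.36% and 1.78% of all genes were called higher and lower. None of the 5 passed with the macrophage covariate (adjusted p = 0.155 to 0.559). The differences in that fit were 1.47 for Scarb2 and 0.90 for Lipa, and 1.20 for Gm2a, 0.53 for Atp6v0a1 and -0.73 for Ctsl, so that of Scarb2 was as large as without the covariate and those of the other 4 were smaller. In that fit 21 genes of the whole table passed in place of 551. The marker sum fell in one clone and rose in the other, and its part in these 5 differences was not tested beyond that fit. Leaving out 2646R untreated replicate 1 or 2646TN treated replicate 2 left 3 calls, without Ctsl (adjusted p = 0.0845 and 0.075) and Atp6v0a1 (0.0601 and 0.0505), and Ctsl was also lost without 2646R treated replicate 1 (0.0608) or 2646TN untreated replicate 3 (0.0681).

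The untreated groups show how the clones differed without drug. The F test over the 5 untreated groups called 32 of the 37 genes, where 56.6% of all tested genes were called, and Ctsd, Ctsz, Glb1, Gusb and Psap were not. There were 9 genes that differed in one direction in both untreated R against TN pairs, which share no libraries, where 10.3% of all tested genes did. Ctsb, Ctsl, Npc1 and Atp6v1h were higher in both R clones, and Ctsa, Man2b1, Gm2a, Asah1 and Lamp2 were lower. In all, 6 genes were higher and 17 lower in untreated 2646R than in 2646TN (18.3% and 18.4% of all genes), and 5 higher and 8 lower in untreated 14559R than in 14559TN (12.9% and 11.2%). The latter count of 13 was 8 without untreated replicate 1 of 14559TN or of 14559R. The median log2 difference of the 37 genes was -0.45 in the 2646TN/2646R pair and -0.24 in the 14559TN/14559R pair, beside medians of all genes within 0.0046 of 0.

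Gm2a showed the greatest separation among the 9 shared genes. The untreated values given above place every R tumour at or below 7.56 CPM and every tumour of 2646TN and 14559TN at or above 30.4 CPM. It was 6.56-fold lower in 2646R (log2 -2.71 ± 0.31 SE, adjusted p = 4.28e-08) and 6.85-fold lower in 14559R (log2 -2.78 ± 0.31 SE, adjusted p = 5.08e-08). Ctsl ran in the other direction, 3.48-fold higher in 2646R (log2 1.80 ± 0.21 SE, adjusted p = 1.77e-07) and 2.17-fold higher in 14559R (log2 1.11 ± 0.21 SE, adjusted p = 0.000194), with no overlap in either pair. Ctsb was higher by 1.44-fold (log2 0.53 ± 0.13 SE, adjusted p = 0.00197) and 1.53-fold (log2 0.61 ± 0.13 SE, adjusted p = 0.000765), and Npc1 by 1.41-fold (log2 0.49 ± 0.14 SE, adjusted p = 0.00745) and 1.66-fold (log2 0.73 ± 0.14 SE, adjusted p = 0.000322).

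Npc1 stood at 63.3, 69.3 and 65.9 CPM in untreated 14559TN and at 112, 104 and 113 CPM in untreated 14559R tumours, with 84.2, 70.9 and 79.0 and 104, 157 and 129.5 CPM under treatment, so that the R clone was above the TN clone without overlap in each condition. In 13TN it was at 88.2, 75.5 and 75.5 CPM untreated and 61.9, 89.6 and 74.4 CPM treated. Atp6v1h stood at 38.2, 37.3 and 23.1 CPM in untreated 2646TN tumours, 39.0, 26.1 and 42.0 CPM in 14559TN, 55.5, 58.4 and 60.2 CPM in 14559R and 42.3, 45.0 and 53.4 CPM in 13TN. Under treatment it was at 33.2, 33.7 and 17.9 CPM in 2646TN, 28.9, 37.3 and 40.5 CPM in 14559TN, 59.0, 59.2 and 56.0 CPM in 14559R and 36.5, 45.0 and 38.4 CPM in 13TN. Untreated, the R values lay above those of the matching TN clone in each pair, with log2 0.58 ± 0.21 SE, adjusted p = 0.0258 for 2646R and log2 0.69 ± 0.20 SE, adjusted p = 0.0121 for 14559R. The 2646R against 2646TN call of Atp6v1h ended without 2646R untreated replicate 1 or 3 or 2646TN untreated replicate 3 (adjusted p = 0.069 to 0.199), with only the groups compared (0.056) and with the macrophage covariate (0.708), and the 14559R against 14559TN call without 14559TN untreated replicate 2 (0.101).

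Ctsa (cathepsin A, a carboxypeptidase that also protects beta-galactosidase and sialidase) was at 199, 216 and 220.5 CPM in untreated 2646TN and 131, 98.7 and 129 CPM in 2646R tumours. It was at 201, 184 and 179.6 CPM in untreated 14559TN, 110.5, 143 and 123 CPM in 14559R and 179.5, 183 and 152 CPM in 13TN. Both R clones lay below their TN partner without overlap (log2 -0.83 ± 0.13 SE, adjusted p = 6.7e-06 and log2 -0.59 ± 0.13 SE, adjusted p = 0.00092). Under treatment Ctsa was at 141, 161 and 175 CPM in 2646TN, 101, 119.9 and 109 CPM in 2646R, 170.0, 181 and 168 CPM in 14559TN, 155, 167 and 131 CPM in 14559R and 131, 137 and 144 CPM in 13TN. The treated 2646TN/2646R pair was still apart (log2 -0.53 ± 0.13 SE, adjusted p = 0.00324), and the treated 14559TN/14559R pair did not pass (adjusted p = 0.197).

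Man2b1 was at 96.0, 114 and 106 CPM in untreated 2646TN and 61.7, 49.4 and 45.8 CPM in 2646R (log2 -1.01 ± 0.16 SE, adjusted p = 9.55e-06), and at 85.1, 90.2 and 90.8 CPM in 14559TN and 54.7, 71.1 and 61.2 CPM in 14559R (log2 -0.51 ± 0.16 SE, adjusted p = 0.0182). Under treatment it was at 89.3, 108 and 99.0 CPM in 2646TN, 45.9, 45.3 and 62.1 CPM in 2646R, 95.5, 99.6 and 99.8 CPM in 14559TN and 84.2, 75.3 and 72.1 CPM in 14559R. Each R clone was below its TN partner in either condition without overlap, although the 14559R against 14559TN call held only untreated and ended there without 14559R untreated replicate 1 or 3 or 14559TN untreated replicate 2 or 3 (adjusted p = 0.0511 to 0.104). Lamp2, the receptor of chaperone-mediated autophagy, was at 656, 648 and 556 CPM in untreated 2646TN, 459, 438 and 455 CPM in 2646R, 772, 666 and 749 CPM in 14559TN, 503, 657 and 521 CPM in 14559R and 601, 696 and 601 CPM in 13TN. Under treatment it was at 561, 488 and 374 CPM in 2646TN, 410.0, 392 and 378 CPM in 2646R, 759.6, 919.7 and 792 CPM in 14559TN, 781, 798 and 609.9 CPM in 14559R and 665, 736 and 723 CPM in 13TN. The untreated differences were small (log2 -0.46 ± 0.13 SE, adjusted p = 0.00689 and log2 -0.38 ± 0.13 SE, adjusted p = 0.0343). The 14559R against 14559TN call of Lamp2 ended without 14559R or 14559TN untreated replicate 1 or 3 (0.0926 to 0.163) and without the low-count filter (0.0547). Asah1 was also lower in both R clones untreated (log2 -0.48 ± 0.17 SE, adjusted p = 0.0214 and log2 -0.50 ± 0.16 SE, adjusted p = 0.0249). Its 2646R against 2646TN call ended without untreated replicate 3 of 2646R (0.114) or of 2646TN (0.121) and with the macrophage covariate (0.704), and its 14559R against 14559TN call without 14559R untreated replicate 2 or 3 or 14559TN untreated replicate 1 or 2 (0.0514 to 0.106).

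**Figure D4:**
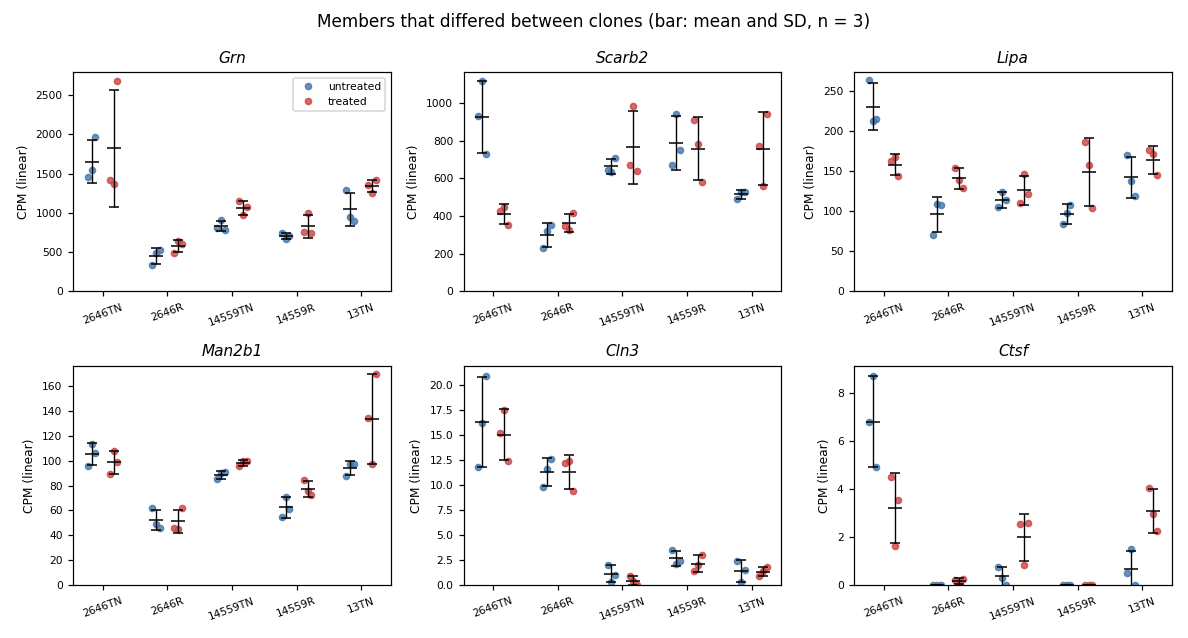
Each panel plots 1 gene in CPM on a linear axis from 0, by clone, with untreated tumours in blue, treated tumours in red and bars for the mean and SD of 3 tumours. The group means of Scarb2 and Lipa are highest in untreated 2646TN, that of Grn is highest in treated 2646TN (1372 to 2674 CPM), Cln3 is above 9 CPM in 2646TN and 2646R alone, and Ctsf is at 0 counts in all 6 libraries of 14559R.

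Some differences stood in the 2646TN/2646R pair. Grn, a secreted growth factor precursor that is cleaved into granulins in the lysosome, was at 1451, 1545 and 1964 CPM in untreated 2646TN and 341, 493 and 531 CPM in 2646R. It was at 1415, 1372 and 2674 and 494, 639 and 604 CPM under treatment, so the clones were apart in both conditions. It was 3.63-fold lower in 2646R untreated (log2 -1.86 ± 0.20 SE, adjusted p = 4.58e-08) and 3.15-fold lower treated (log2 -1.65 ± 0.20 SE, adjusted p = 7.58e-07). In 14559TN it was at 809.9, 911 and 785 CPM untreated, in 14559R at 739.6, 672 and 706 CPM and in 13TN at 1289, 946 and 901 CPM, and the 14559TN/14559R pair did not pass (adjusted p = 0.399).

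Scarb2 (log2 -1.62 ± 0.20 SE, adjusted p = 4.87e-07), Atp6v0a1 (log2 -1.50 ± 0.17 SE, adjusted p = 3.5e-08), Gaa (log2 -1.45 ± 0.21 SE, adjusted p = 2.05e-06) and Lipa (log2 -1.27 ± 0.18 SE, adjusted p = 1.37e-06) were also lower in untreated 2646R than in 2646TN. In the treated pair Gaa (log2 -0.83 ± 0.21 SE, adjusted p = 0.00464) and Atp6v0a1 (log2 -0.58 ± 0.16 SE, adjusted p = 0.0092) remained lower, and Scarb2 (-0.17 ± 0.20, adjusted p = 0.58) and Lipa (-0.17 ± 0.17, adjusted p = 0.546) did not pass. Gla was higher in untreated 2646R (log2 1.09 ± 0.31 SE, adjusted p = 0.00578), a call that ended without 2646R untreated replicate 1 (adjusted p = 0.0695) and with the macrophage covariate (0.454). The other calls in this comparison were higher Atp6v1a and lower Npc2, Naglu, Mcoln1, Atp6ap1, Atp6v0d1 and Glb1. Of these, Atp6v1a ended without 2646TN untreated replicate 3 (adjusted p = 0.06), Naglu and Atp6ap1 without 2646R untreated replicate 1 (0.0557 and 0.0762), Glb1 without 2646R untreated replicate 1 or 2646TN untreated replicate 1 or 3 (0.0549 to 0.134), and Mcoln1 without 2646R untreated replicate 3 or 2646TN untreated replicate 2 or 3 (0.0518 to 0.0756). Macrophage markers were called lower in untreated 2646R for 9 of 13 tested markers, with sums of 36.4 to 79.0 CPM in 2646R and 219.6 to 362.9 CPM in 2646TN. With the macrophage covariate 12 of the 23 calls remained. Ctsl, Gm2a, Grn, Scarb2, Atp6v0a1, Gaa, Lipa, Man2b1, Ctsa and Ctsf were among them, and Ctsb and Npc1 were not. The log2 differences of Ctsb and Npc1 in that fit were 0.56 (adjusted p = 0.0602) and 0.57 (0.0923), larger than without the covariate. The marker sums of 2646R and 2646TN did not overlap, so that fit cannot tell marker level from clone. How many calls over all genes it kept is not given here. Macrophage RNA in this pair was not tested beyond that fit.

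Ctsf was nearly an on-off difference. Untreated 2646TN tumours held 27, 28 and 22 counts of it and untreated 2646R tumours 0, 0 and 0, so it was at least 30.2-fold lower in 2646R against a floor of 3 counts over the group (adjusted p = 1.46e-05). Treated 2646TN tumours held 16, 5 and 14 counts and treated 2646R tumours 1, 0 and 1, a ratio of 21.7 with a counting interval of 6.00 to 178.9. In 14559R all 6 libraries held 0 counts, which allows up to 0.232 CPM untreated and 0.228 CPM treated. Untreated 14559TN tumours held 3, 1 and 0 counts and treated ones 9, 4 and 9, so treated 14559R was at least 8.50-fold lower (adjusted p = 0.000867). Clone 13TN held 2, 6 and 0 counts untreated and 18, 13 and 9 treated. Intervals and floors here cover counting error only.

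Cln3, a membrane protein of the lysosome whose loss causes a juvenile storage disease, separated 2646TN and 2646R from the rest. Its group means were 16.3 ± 4.52 CPM (SD, n = 3) in untreated 2646TN and 11.3 ± 1.39 CPM in untreated 2646R, and 0.422 to 2.67 CPM in the groups of the other 3 clones. In counts, 145 to 192 reads per group stood against 5 to 33. It was higher in treated 14559R than in treated 14559TN, with 26 against 5 counts (ratio 4.49 after scaling, adjusted p = 0.00776), and with only the groups compared that call ended (0.0569).

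Under treatment the 2 pairs went different ways in number. Treated 2646R had 1 gene higher and 9 lower than treated 2646TN (10% and 10.1% of all genes), and treated 14559R had 14 higher and 7 lower than treated 14559TN (26.6% and 22.8%). The medians were -0.23 and 0.08. Macrophage marker sums of the treated 2646TN/2646R pair were apart, at 41.5 to 125.2 CPM in 2646TN and 138.9 to 145.9 CPM in 2646R. In treated 2646R, C1qc, Lyz2, Mrc1, Col1a1, Rgs5 and Pdgfrb were called higher than in treated 2646TN, and Cdh5, Pdgfra and Lum lower. Macrophage marker sums of the treated 14559TN/14559R pair were also apart, at 75.7 to 141.1 CPM in 14559TN and 28.2 to 57.3 CPM in 14559R. In treated 14559R, Lyz2, C1qb, Aif1, Pecam1, Kdr, Dpt and Acta2 were called lower than in treated 14559TN. Cd14, Cdh5, Lum, Col1a1, Pdgfrb and Cspg4 were called higher. Cdh5 was at 1.81, 2.44 and 36.8 CPM in treated 14559R and at most 0.570 CPM in treated 14559TN, so treated replicate 3 of 14559R carried most of its level. The part of other cell types in either treated pair was not tested beyond the alternatives run. In the 14559TN/14559R pair, Ctsl was 5.94-fold higher (log2 2.57 ± 0.22 SE, adjusted p = 2.01e-10), Gla 5.01-fold (log2 2.32 ± 0.33 SE, adjusted p = 7.83e-07), Lgmn 2.73-fold (log2 1.45 ± 0.39 SE, adjusted p = 0.0037) and Ctsb 2.50-fold (log2 1.32 ± 0.13 SE, adjusted p = 1.26e-09). Lgmn was at 9.63, 37.3 and 19.1 CPM in treated 14559TN and 77.1, 44.3 and 62.5 CPM in treated 14559R, and its call ended with only the groups compared (adjusted p = 0.0515). The other higher genes were Ctsh, Asah1, Npc1, Atp6v1h, Cd63, Naglu, Atp6v1a, Gusb, Npc2 and Cln3. Of these, Naglu ended without 14559R treated replicate 2 or 14559TN treated replicate 3 (0.116 and 0.104), Npc2 also without 14559TN treated replicate 2 (0.0716 to 0.195), and Gusb without 14559R treated replicate 1 or 2 or 14559TN treated replicate 2 or 3 (0.0702 to 0.165).

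Gm2a was 9.26-fold lower (log2 -3.21 ± 0.30 SE, adjusted p = 3.43e-10), and Gaa (log2 -0.72 ± 0.21 SE, adjusted p = 0.00472), Atp6v0a1 (log2 -0.63 ± 0.16 SE, adjusted p = 0.00122) and Hexa (log2 -0.52 ± 0.14 SE, adjusted p = 0.00217) were lower as well, as were Ctsf, Ctsz and Ppt1. The Ctsz call ended without any 1 of the 3 treated 14559R tumours or of 14559TN treated replicates 1 and 3 (adjusted p = 0.0508 to 0.174), and that of Ppt1 without 14559R treated replicate 1 or 2 or 14559TN treated replicate 2 or 3 (0.0513 to 0.0976). These values share their treated 14559TN libraries with the responses above, so they are not separate evidence of them. In the treated 2646TN/2646R pair, Ctsl was the gene called higher (log2 0.66 ± 0.21 SE, adjusted p = 0.0228), and the call ended without 2646R treated replicate 2 or 3 or 2646TN treated replicate 1 or 3 (adjusted p = 0.0587 to 0.137). Man2b1 (log2 -0.95 ± 0.16 SE, adjusted p = 5.96e-05) and Gm2a (log2 -0.88 ± 0.28 SE, adjusted p = 0.0233) were among the lower ones, with Npc2 (log2 -0.58 ± 0.14 SE, adjusted p = 0.00228) and Lamp1 (log2 -0.37 ± 0.12 SE, adjusted p = 0.0226), and the Gm2a call ended without treated replicate 2 or 3 of either clone (0.0508 to 0.0858). Without 2646R treated replicate 1 the Atp6v0a1 call of this pair ended (0.0596), and that of Lamp1 ended without 2646R treated replicate 1 or 2 or 2646TN treated replicate 3 (0.0665 to 0.107). The other untreated calls of the 14559TN/14559R pair were higher Cd63 and lower Tpp1 (log2 -0.84 ± 0.26 SE, adjusted p = 0.0192), Hexa and Ppt1. That of Tpp1 ended without 14559R untreated replicate 1 or 14559TN untreated replicate 1 or 3 (0.0626 to 0.071), that of Cd63 without 14559TN untreated replicate 1 (0.0524), that of Hexa without 14559R untreated replicate 1 (0.0771) and that of Ppt1 without any 1 of the 3 untreated 14559R tumours or of 14559TN untreated replicates 1 and 2 (0.0541 to 0.172).

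Further genes of the pump and the lysosome, outside the 37, were counted in the same way. Of 11 tested further V-ATPase genes, 4 fell in 2646TN, 6 in 2646R, 2 in 14559TN and 7 in 13TN, and 1 rose in each of 14559TN and 13TN. The greatest falls were those of Atp6v1b2, a subunit of the cytosolic sector, in 2646R (-1.46 ± 0.18, adjusted p = 8.34e-07) and of Atp6ap2, an accessory protein of the pump, in the same clone (-1.17 ± 0.16, adjusted p = 3.56e-06). Of 42 further lysosome genes, 0 rose and 3 fell in 2646TN, 6 rose and 5 fell in 2646R, 5 rose and 1 fell in 14559TN, and 8 rose and 4 fell in 13TN. In 14559R 0 genes of either set were called. Among all tested genes, 1.69% rose and 2.24% fell in 2646TN, and 9.7% rose and 10.2% fell in 2646R. These shares were 12.4% and 16% in 14559TN, 13.6% and 17.4% in 13TN, and 0.143% and 0.0527% in 14559R. Ctsc (-3.16 ± 0.56, adjusted p = 0.000617) and Ctss (-1.94 ± 0.54, adjusted p = 0.0411) were the greatest falls in 2646TN, where the macrophage markers fell too. Ctss rose in 2646R (1.57 ± 0.56, adjusted p = 0.0486), where the marker sum was higher. The share of Ctsc and Ctss from macrophages was not tested. In untreated 2646R, 5 of the 42 were higher and 19 lower than in 2646TN (18.3% and 18.4% of all tested genes). In untreated 14559R, 1 of the 42 was higher and 7 lower than in 14559TN (12.9% and 11.2% of all tested genes). Among these, Sort1, a sorting receptor for lysosomal cargo, was called lower in 2646R (adjusted p = 0.0127) and in 14559R (adjusted p = 0.00262). Sort1 held 161 counts over all libraries together, so it was close to the limit of detection.

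None of the 3 tested MiT/TFE factors (Mitf, Tfeb and Tfe3) was called in a treatment response, and Tfec did not pass the low-count filter. Fitted responses of Mitf ran from -0.72 ± 0.26 (adjusted p = 0.127) in 2646TN to 0.70 ± 0.23 (adjusted p = 0.221) in 14559R. Tfeb had 0.91 to 1.35 in 2646R, 14559TN and 13TN with adjusted p from 0.0862 to 0.162. Between clones, untreated 2646R was lower in Tfeb (-1.83 ± 0.55, adjusted p = 0.00929) and Tfe3 (-0.43 ± 0.15, adjusted p = 0.0268), and untreated 14559R was lower in Mitf (-0.68 ± 0.23, adjusted p = 0.0322). Of the 7 genes whose window holds TCACGTGA, 0 rose in any response, 0 fell in 2646TN, 3 fell in 2646R (Ctsd, Gla and Atp6v1a) and 2 in each of 14559TN and 13TN (Gla and Atp6v1a). Of the 25 genes with a window that lacks it, 0 rose and 3 fell in 2646TN, 4 rose and 4 fell in 2646R, 3 rose and 4 fell in 14559TN, and 6 rose and 5 fell in 13TN. Of the 14 genes with the core CACGTG, 0 rose and 1 fell in 2646TN, 0 rose and 5 fell in 2646R, 1 rose and 3 fell in 14559TN, and 2 rose and 5 fell in 13TN. Of all tested genes, 1.69% rose and 2.24% fell in 2646TN, and 9.7% rose and 10.2% fell in 2646R. The shares were 12.4% and 16% in 14559TN, 13.6% and 17.4% in 13TN, and 0.143% and 0.0527% in 14559R. No test was made of these counts.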

How the data were processed

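The authors used STAR 2.6.0c, GRCm38 and featureCounts 1.6.2 per the submitters' processing notes, and the file headers record stranded counting. The deposited values are raw counts per gene, and libraries had 3022801 to 5278453 of them. From these counts, CPM and all tests were computed in R 4.3.3. Genes were kept with filterByExpr and scaled with TMM factors, and 1 edgeR 4.0.16 quasi-likelihood fit with robust dispersion held all 30 libraries in 10 groups, with 20 residual degrees of freedom. Comparisons were contrasts of that fit, and calls were made at adjusted p under 0.05 (Benjamini-Hochberg, all 13286 genes). SE is the log2 fold change divided by the root of F. The script was tested on simulated data.

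The 37 members, the other gene lists and the tests were chosen with earlier results of these data known. Genes with values were those called with the 5 largest changes in each direction of a comparison. Values in every library were given for the 15 genes called in at least 3 responses, called in both untreated R against TN pairs in 1 direction, or with the greatest change of a comparison. Further values of Grn, Scarb2, Gaa and Cln3 were added after they were seen. Alternatives were DESeq2 1.42.0, median-of-ratios factors, no low-count filter, only the groups compared, a macrophage marker covariate, and each library left out. The p-values rest on the spread between tumours within a group, estimated over all 10 groups in 1 fit. With 3 tumours of 1 clone per group, they do not cover the spread between clones.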

Additional observations from a re-analysis of the deposited data

Results flagged for a closer look

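Responses to RAFi/MEKi differed between the clones of a pair for 13 gene and pair combinations, each by an edgeR quasi-likelihood test of the difference of responses. In the 2646TN/2646R pair (2646R minus 2646TN, log2 scale) the differences were -1.13 for Ctsl, 1.83 for Gm2a, 1.10 for Lipa, 1.45 for Scarb2 and 0.92 for Atp6v0a1. With the macrophage marker level as a covariate, none of these 5 differences passed. In that fit the Scarb2 difference was 1.47 and that of Lipa 0.90, and those of Gm2a, Atp6v0a1 and Ctsl were smaller in size than without the covariate. In the 14559TN/14559R pair (14559R minus 14559TN) they were 0.71 for Ctsb, 1.46 for Ctsl, 1.70 for Lgmn, -1.05 for Gaa, 1.71 for Gla, 0.71 for Npc2, 1.29 for Asah1 and 0.67 for Atp6v1a. Ctsl was the gene on both lists, with opposite signs: its response was a larger fall in 2646R than in 2646TN and no called change in 14559R. The Ctsl call of the 2646TN/2646R pair was lost with the covariate and also when certain single libraries were left out, as given above. Over all 5 clones the responses of 20 of the 37 genes differed.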

How the results depend on the processing

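Of the 130 calls of a gene in a signed comparison, 72 were kept under every alternative run and 0 reversed. Without the low-count filter, 1 of the 37 genes was called in 14559R. With the macrophage covariate, calls numbered 3 in the 2646TN response, 12 in untreated 2646R against 2646TN and 0 in the response difference of the 2646TN/2646R pair. With only the groups compared, 2646TN had 4 calls. Leaving out 1 library, the responses had 4 to 9 calls in all (2646TN), 10 to 14 (2646R and also 13TN), 9 to 14 (14559TN) and 0 to 1 (14559R). It gave 18 to 23 in untreated and 7 to 9 in treated 2646R against 2646TN, 8 to 11 in untreated and 16 to 21 in treated 14559R against 14559TN, 3 to 5 and 6 to 9 in the response differences of the 2646TN/2646R and 14559TN/14559R pairs, 17 to 21 in the test over 5 responses and 30 to 33 in that over untreated clones. The causes were not tested. Median-of-ratios factors shifted log2 fold changes by less than 0.05 in every signed comparison. DESeq2 kept every count of called genes within 1.5 times. No paired analysis was possible because each tumour has a code of its own in the labels, with no shared replicate number. Depth limits Ctsf and, in 3 clones, Cln3, which had 0 to 77 and 5 to 33 counts per group.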
